A study of Mus musculus with 2 samples.

Results

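The 8 genes described here encode the killing machinery of cytotoxic lymphocytes: the granzymes Gzma, Gzmb, Gzmc, Gzmf, Gzmg and Gzmk, the pore-forming protein perforin (Prf1), and the granule membrane protein Nkg7. They were chosen by gene symbol, as 8 of the 31253 features counted, and all 8 symbols matched exactly 1 feature. Their unique molecular identifiers (UMIs, the tags that mark single captured RNA molecules) were counted in every cell barcode with at least 200 detected genes and under 10% mitochondrial UMIs. That filter kept 5225 of 5786 barcodes in 1 library and 5576 of 5902 in the other.

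Both libraries came from B16 tumors, a transplantable mouse melanoma, grown in wild-type mice. The mice had been vaccinated under the skin with irradiated B16-GM-CSF cells, which are B16 cells that release the cytokine GM-CSF. After 12 days they received live B16 cells in the other flank, carrying a hairpin named either shRFP or shSdc1; Sdc1 encodes syndecan-1, a proteoglycan of the cell surface. Tumors were taken 16 days later, 6 were pooled per group, live CD45+ leukocytes were sorted, and each pool became a single 3' single-cell library. The genotype label calls the shRFP library wild type and the shSdc1 library a Sdc1 knock out, while titles and protocol place a hairpin in the injected tumor cells. The labels do not give the strain, age or sex of the mice. With 1 library of pooled tumors per group there is no replicate, so no difference between shRFP and shSdc1 was tested, and all intervals below cover counting error only.

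Cytotoxic lymphocytes store granzymes and perforin in secretory granules and release them at the contact with a target cell. Perforin opens the target's membrane, and the granzymes, a family of serine proteases, then enter and cleave proteins whose loss can lead to death of the target. Granzyme A and granzyme K cut after basic residues, granzyme B cuts after aspartate, and the mouse granzymes C, F and G belong to a family expansion around Gzmb whose members are less well studied. Natural killer (NK) cells, CD8 T cells and some regulatory T cells are known to express members of this set.

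In the mm10 build, with gene models from GENCODE M21, Gzmb (ENSMUSG00000015437) lies on the minus strand at chr14:56258838-56262260. Gzmc (ENSMUSG00000079186, chr14:56231441-56234656), Gzmf (ENSMUSG00000015441, chr14:56205263-56211417) and Gzmg (ENSMUSG00000040284, chr14:56156582-56159579) follow it on the same strand. Gzma (ENSMUSG00000023132, chr13:113093825-113100981) and Gzmk (ENSMUSG00000042385, chr13:113171608-113225908) are neighbours on chromosome 13. Prf1 (ENSMUSG00000037202) is at chr10:61297833-61304680 and Nkg7 (ENSMUSG00000004612) at chr7:43437073-43438249, both on the plus strand. All are protein-coding genes.

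The promoters of the 4 chromosome 14 members are printed because a single cell held most of the shRFP UMIs of Gzmf and Gzmg and many of Gzmc, while Gzmb was spread over many cells. Each runs 5′ to 3′ on the gene's strand, from 250 bases before the annotated start to 50 after it, and comes from RefSeq annotation of GRCm38.p6. Capitals mark letters that match a Runx core (TGTGGT), an AP-1 site (TGANTCA), a T-box core (AGGTGT) or a TATA box (TATAAA) on either strand.
Gzmb, chr14:56262285-56262584, minus strand: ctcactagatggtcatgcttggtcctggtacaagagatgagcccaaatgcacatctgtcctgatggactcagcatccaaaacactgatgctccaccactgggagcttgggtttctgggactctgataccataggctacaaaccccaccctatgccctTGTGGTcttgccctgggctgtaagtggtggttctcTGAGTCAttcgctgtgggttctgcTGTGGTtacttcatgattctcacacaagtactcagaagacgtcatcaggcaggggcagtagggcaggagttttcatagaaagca
Gzmc, chr14:56234608-56234907, minus strand: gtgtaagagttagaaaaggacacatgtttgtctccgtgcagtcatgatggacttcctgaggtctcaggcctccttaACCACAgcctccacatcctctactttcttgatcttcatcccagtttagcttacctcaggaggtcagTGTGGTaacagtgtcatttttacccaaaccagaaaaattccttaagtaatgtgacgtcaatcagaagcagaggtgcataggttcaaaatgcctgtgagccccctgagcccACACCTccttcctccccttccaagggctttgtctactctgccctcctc
Gzmf, chr14:56211358-56211657, minus strand: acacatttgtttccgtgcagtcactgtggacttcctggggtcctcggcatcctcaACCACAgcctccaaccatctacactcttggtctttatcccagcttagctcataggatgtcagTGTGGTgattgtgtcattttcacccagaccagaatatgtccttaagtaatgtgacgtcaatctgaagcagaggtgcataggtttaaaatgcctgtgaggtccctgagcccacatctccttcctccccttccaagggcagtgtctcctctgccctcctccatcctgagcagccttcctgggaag
Gzmg, chr14:56159530-56159829, minus strand: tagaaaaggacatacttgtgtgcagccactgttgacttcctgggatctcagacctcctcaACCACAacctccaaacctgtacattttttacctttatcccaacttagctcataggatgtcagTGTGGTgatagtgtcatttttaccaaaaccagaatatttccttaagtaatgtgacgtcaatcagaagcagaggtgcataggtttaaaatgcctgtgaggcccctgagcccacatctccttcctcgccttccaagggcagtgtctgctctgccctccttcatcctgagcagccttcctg

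The Gzmb promoter held 1 AP-1 match, beginning 58 bases before the start, and 2 Runx matches, at 93 and 34 bases. The Gzmb window, placed by the RefSeq start, lies wholly upstream of the GENCODE gene given above. Its distances therefore depend on the annotation used. None of the Gzmc, Gzmf and Gzmg windows held an AP-1 match. Each of those 3 held 2 Runx matches, at 174 and 108 bases in Gzmc, 195 and 133 in Gzmf, and 190 and 128 in Gzmg, the first of each pair on the opposite strand. Gzmc alone of the 4 held a T-box core, just after its start, and no window held a TATA match. Over 32544 mouse promoters of the same length, 16.7% held the Runx letters, 7.79% the AP-1 letters, 13.8% the T-box core and 13.6% the TATA letters. A match describes the letters in this window and is not evidence of binding.

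Gzmf and Gzmg were the closest pair among the 4, with 84.5% identity between the promoters and 86.8% between the coding sequences. Gzmc shared 73.5% and 75.9% of its promoter with Gzmf and Gzmg, while the Gzmb promoter shared 45.1% to 47.8% with any of the other 3. Similar genes can share reads, so the last 500 bases of each transcript, the part a 3' library reads, were cut into windows of 90 bases. None of the 411 windows of any of the 8 genes occurred in another granzyme, and only Gzmd and Gzme, which are not among the 8, shared 7 windows (1.70%). The labels and headers do not state the read length.

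The kept barcodes held 4116399 UMIs in shRFP and 4281577 in shSdc1, with a median of 662 and 601 UMIs per cell. Of the deposited barcode sequences 20 occurred in both libraries, and 17 after the filter. Clusters were made without the granzyme genes, Prf1 and Nkg7, and were named "-like" from marker genes. The NK-like cluster held 75 and 251 cells in shRFP and shSdc1, and 52.0% and 47.4% of them had a UMI of the NK receptor genes Ncr1, Klrb1c or Klre1. The CD8-like cluster held 217 and 493 cells, with a Cd8a or Cd8b1 UMI in 53.5% and 51.3%. The regulatory-like cluster held 280 and 593 cells, with Foxp3, the defining factor of regulatory T cells, in 16.1% and 17.2%, and with all 8 of its listed markers detected. A further lymphoid cluster, sub-cluster 5, held 79 and 170 cells and was not named. It scored highest for cycling markers, but its leading genes (Ccl1, Nrgn, Gemin6, Ifng and Xcl1 first) held the NK marker Xcl1 and no cycling marker. Of the 10 listed NK markers only 3 and 4 were detected in this cluster, while all 8 T cell markers were, as they also were in NK-like cells. A CD8 UMI was present in 67.1% and 53.5% of its cells and a UMI of the proliferation genes Mki67 or Top2a in 49.4% and 52.4%. Its median depth, 1101 and 1135 UMIs, was far above the 379 and 404 of NK-like cells and the 417 and 444 of CD8-like cells. Sdc1 itself does not check the labels, since the hairpin was in tumor cells outside the sort; the sorted cells held 103 and 85 of its UMIs.

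Lymphoid cells held nearly all the RNA of the 8 genes. They made up 21.9% of shRFP cells and 36.0% of shSdc1 cells, and 14.5% and 28.5% of all UMIs. In both libraries they held between 86.2% and 100% of each gene's UMIs that were present. Myeloid and dendritic populations, with 77.6% and 63.6% of all UMIs, held at most 5.17% of any of the 8 (Gzmk in shRFP, 3 of 58 UMIs). In monocyte/macrophage-like cells, which should lack these genes, a UMI was found in 0.172% and 0.170% of cells for Gzmb and in 0.473% and 0.638% for Nkg7, at median depths of 713 and 674 UMIs. Those shares are the background against which the lymphoid shares below are read.

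The genes split by source. Gzma and Gzmc came mainly from NK-like cells: 63.3% of Gzma UMIs in shRFP and 77.3% in shSdc1, and 77.4% and 69.4% of Gzmc UMIs, from a cluster with 0.889% and 3.04% of all UMIs. Gzmk and Nkg7 came mainly from CD8-like cells, which held 62.1% and 56.3% of Gzmk and 39.4% and 41.0% of Nkg7. Gzmb had no single cluster as its main source. CD8-like cells held 28.2% and 23.6% of it, sub-cluster 5 held 23.6% and 28.0%, regulatory-like cells 21.5% and 17.5%, and NK-like cells 11.2% and 15.0%. Together CD8-like cells and sub-cluster 5 held 51.8% and 51.6% of Gzmb. Prf1 came from CD8-like cells (43.1% and 28.6%), sub-cluster 5 (22.8% and 31.2%) and NK-like cells (13.8% and 26.1%).

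**Figure D1:**
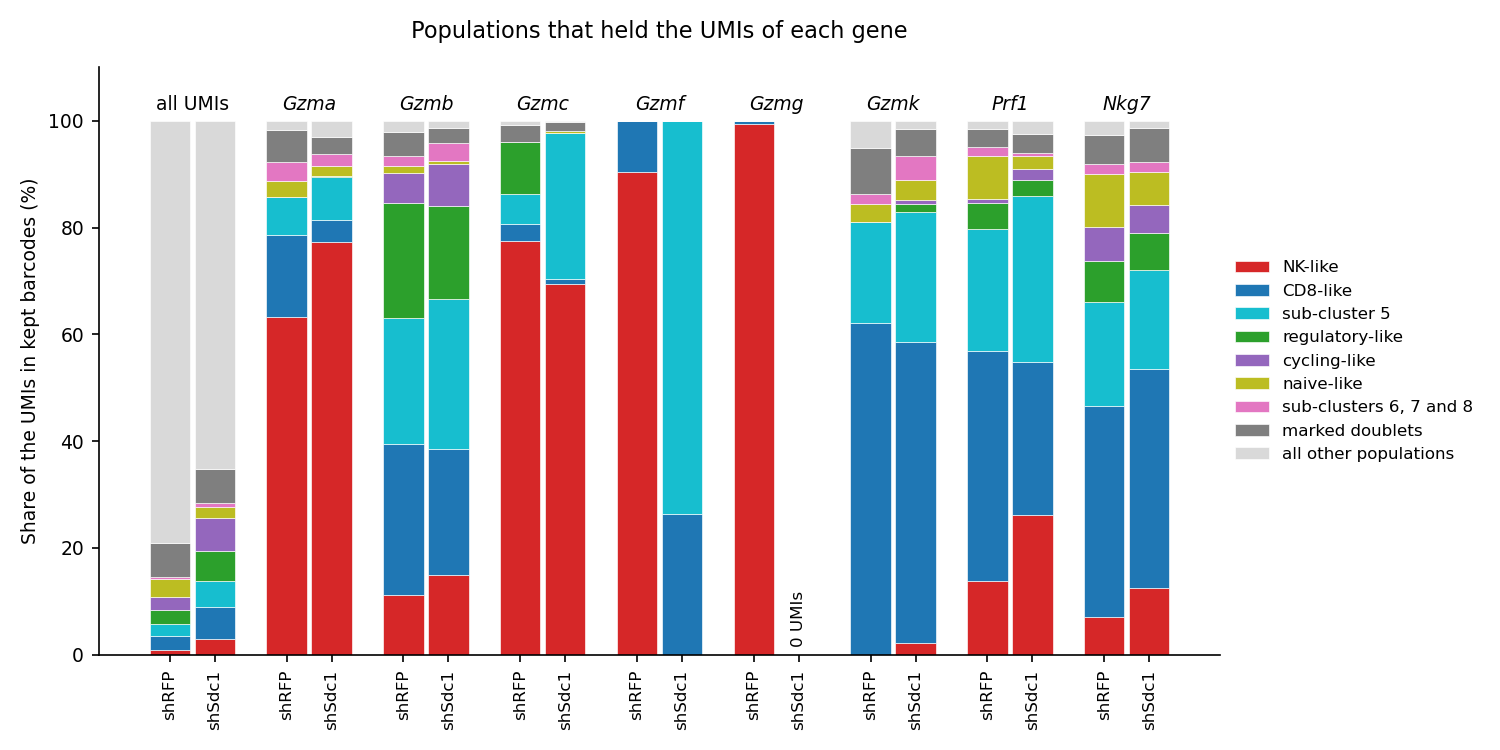
Share of each gene's UMIs (in percent of the gene's UMIs in kept barcodes) held by each population in shRFP and shSdc1, with all UMIs at the left for comparison. NK-like cells fill most of the Gzma and Gzmc bars in both libraries, the Gzmb bars are split over 4 lymphoid populations, and Gzmg had no UMI in shSdc1.

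Nkg7, which resides in the granule membrane and takes part in granule release, was found in 432 cells of shRFP and 949 of shSdc1. Levels are written in CPM, a gene's UMIs for every 1000000 UMIs of that population. Nkg7 reached 3345 CPM in the CD8-like cells of shRFP and 3310 CPM in those of shSdc1, above the other 6 populations in both libraries. NK-like cells had 1776 and 1959 CPM and sub-cluster 5 had 1879 and 1794 CPM; the intervals of these 2 populations overlapped in each library. Naive-like T cells were at 671 and 1434 CPM, regulatory-like cells at 653 and 583 CPM, and cycling-like cells at 561 and 402 CPM. A UMI of Nkg7 was found in 64.1% and 69.4% of CD8-like cells, in 54.7% and 59.8% of NK-like cells and in 14.6% and 16.2% of regulatory-like cells.

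Prf1, the gene of the pore-forming protein, had its highest level in CD8-like cells in shRFP (494 CPM, 95% Poisson interval 370 to 646) and in NK-like cells in shSdc1 (399 CPM, 298 to 524). In both libraries NK-like cells, CD8-like cells and sub-cluster 5 were the 3 highest populations. Neighbours in the order of levels overlapped, but in shSdc1 the NK-like interval lay above that of CD8-like cells (172 to 293). Regulatory-like cells had 55.9 and 24.6 CPM, from 6 UMIs in each library. A Prf1 UMI was found in 2.14% and 0.843% of regulatory-like cells, against 0.0861% and 0.128% of monocyte/macrophage-like cells.

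Gzma was far higher in NK-like cells than in the other 6 populations compared. Its level there was 2924 CPM in shRFP and 3618 in shSdc1, against 242 and 99.3 CPM in CD8-like cells and 127 and 234 CPM in sub-cluster 5. The NK-like interval overlapped with none of the other 6 populations. Outside these 7, 2 small unnamed lymphoid clusters had Gzma on few UMIs. Sub-cluster 6 (13 and 44 cells) had 900 and 145 CPM, from 5 and 3 UMIs. Sub-cluster 7 (11 and 12 cells) had 0 and 1170 CPM, from 0 and 10 UMIs. Regulatory-like cells held 0 Gzma UMIs in shRFP, where 0 of 280 cells allows a share of cells with a UMI of up to 1.07% (the floor of 3 counts) at this depth, and 1 UMI in shSdc1. Gzmk, the other chromosome 13 granzyme, showed the opposite pattern. It reached 335 and 302 CPM in CD8-like cells and 116 and 158 CPM in sub-cluster 5, while NK-like cells had 0 UMIs in shRFP and 3 in shSdc1 (23.0 CPM).

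Gzmb was the granzyme seen in many regulatory-like cells: 43 and 81 of them held a Gzmb UMI, while Gzmc was found in 1 cell in shRFP, and Gzma in 1 and Gzmk in 2 cells in shSdc1. It was at 662 CPM in shRFP and 661 in shSdc1 there, next to 866 and 862 CPM in CD8-like cells, 1011 and 1060 CPM in NK-like cells, and 823 and 1234 CPM in sub-cluster 5. In both libraries each of these populations overlapped with its neighbour in the order of levels, and all 4 lay above the cycling-like cells (187 and 273 CPM), with no overlap. In shSdc1 the regulatory-like interval (563 to 771) lay below those of NK-like cells (890 to 1252) and sub-cluster 5 (1088 to 1394). The small unnamed sub-cluster 6 also had Gzmb, at 1080 and 1401 CPM, from 6 and 29 UMIs. A Gzmb UMI was present in 15.4% and 13.7% of regulatory-like cells at median depths of 344 and 366 UMIs, against the 0.172% and 0.170% of the deeper monocyte/macrophage-like cells. The 74 and 165 cells with a Foxp3 UMI, from any cluster, had 293 and 396 CPM of Gzmb, from 13 and 47 UMIs. No Gzma, Gzmc, Gzmf, Gzmg or Gzmk UMI was found in these Foxp3+ cells.

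Gzmc stood highest in NK-like cells, with 2624 CPM (shRFP) and 3287 CPM (shSdc1). In sub-cluster 5 its levels were 73.9 and 809 CPM, and in CD8-like cells at 37.3 and 23.8 CPM. Regulatory-like cells of shRFP held 12 Gzmc UMIs, all in 1 cell. Gzmf and Gzmg were seen at 1039 and 4209 CPM in shRFP NK-like cells, and every one of those UMIs came from a single cell, described below. Outside it, Gzmf was found in CD8-like cells (4 UMIs in shRFP and 5 in shSdc1) and in sub-cluster 5 of shSdc1 (14 UMIs), and Gzmg in 1 CD8-like cell of shRFP with 1 UMI.

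**Figure D2:**
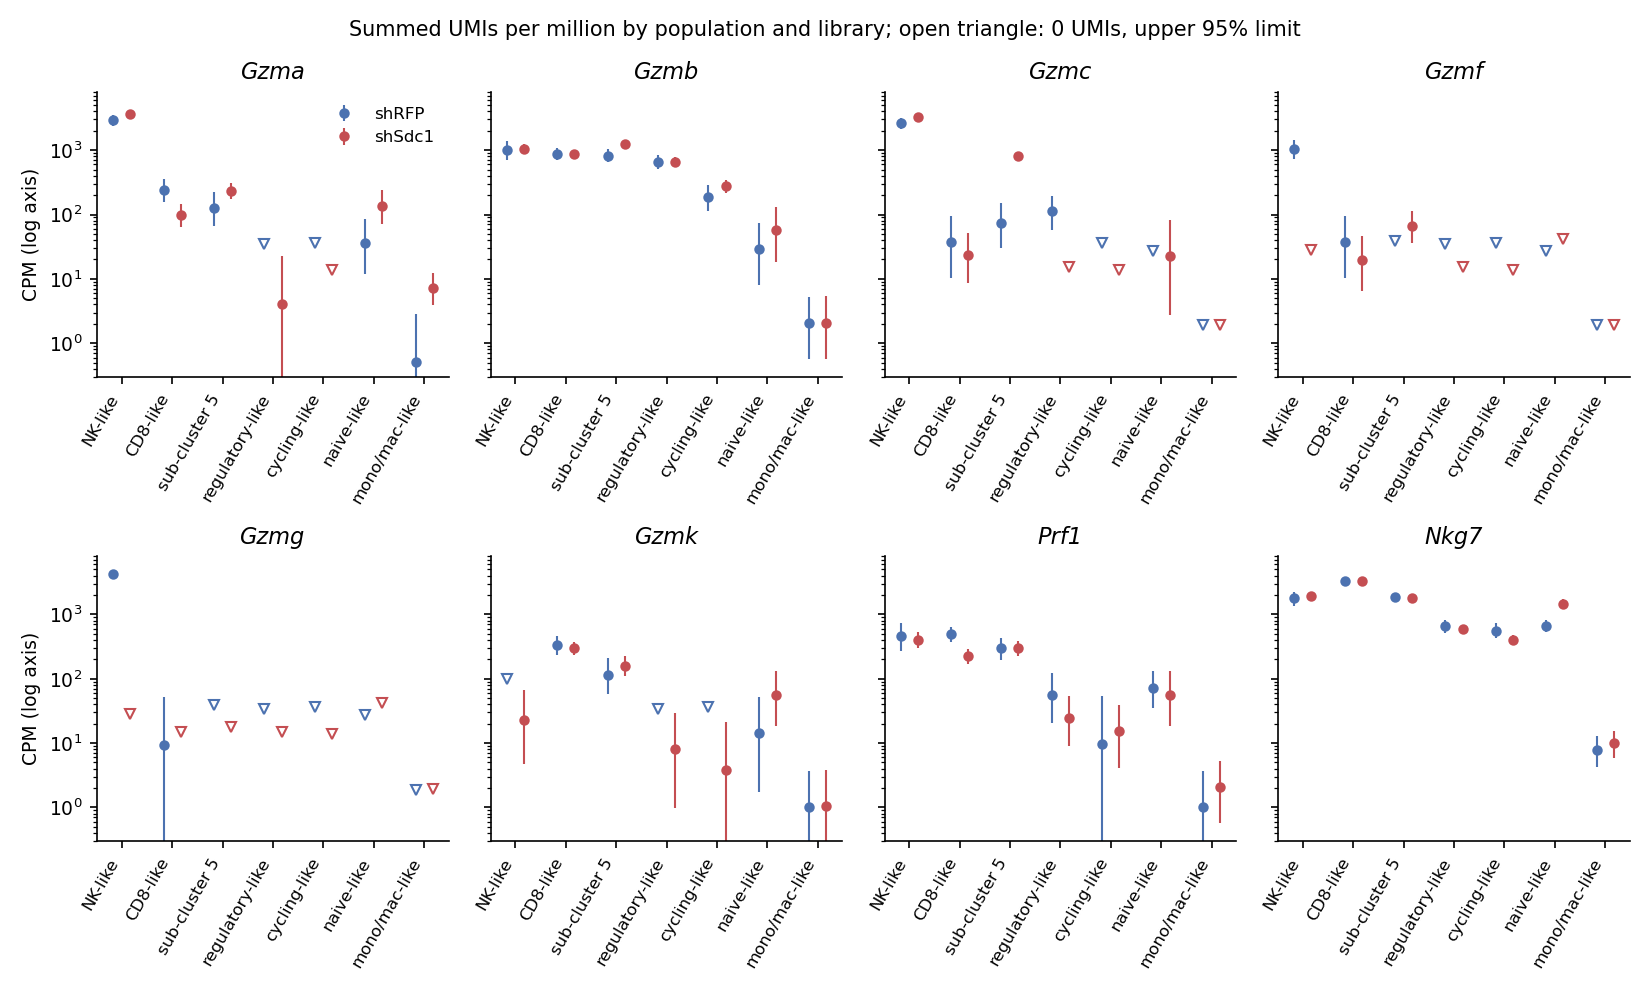
Level of each gene (CPM on a log axis, with 95% Poisson intervals of counting error, cut at the lower edge of the axis) in 7 populations of shRFP and shSdc1; open triangles mark 0 UMIs at the upper limit. NK-like cells stand alone for Gzma, at 2924 and 3618 CPM, CD8-like cells lead for Gzmk and Nkg7, and Gzmb lies between 661 and 1234 CPM in NK-like, CD8-like, sub-cluster 5 and regulatory-like cells.

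The 8 genes differed in how far their RNA was bunched in few cells. For Gzmc, 15 cells of shRFP held all 124 UMIs and 2 of them held at least 50%, and 63 cells of shSdc1 held 617 UMIs, with 6 cells holding at least 50%. The 5 highest Gzmc cells had 60, 14, 14, 12 and 4 UMIs in shRFP, and 87, 73, 59, 46 and 33 in shSdc1. Gzma UMIs lay in 56 and 171 cells, with 12 and 26 cells holding at least 50%. Gzmb was spread over 163 and 401 cells, and at least 50% of it lay in 31 and 70 of them. Gzmk was spread more thinly, in 50 and 117 cells with no more than 3 UMIs in any, and 86.0% and 85.5% of its positive cells held 1 UMI. For Prf1 21 of 81 and 34 of 132 cells held 50% of the UMIs, and for Nkg7 101 of 432 and 236 of 949 cells did.

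**Figure D3:**
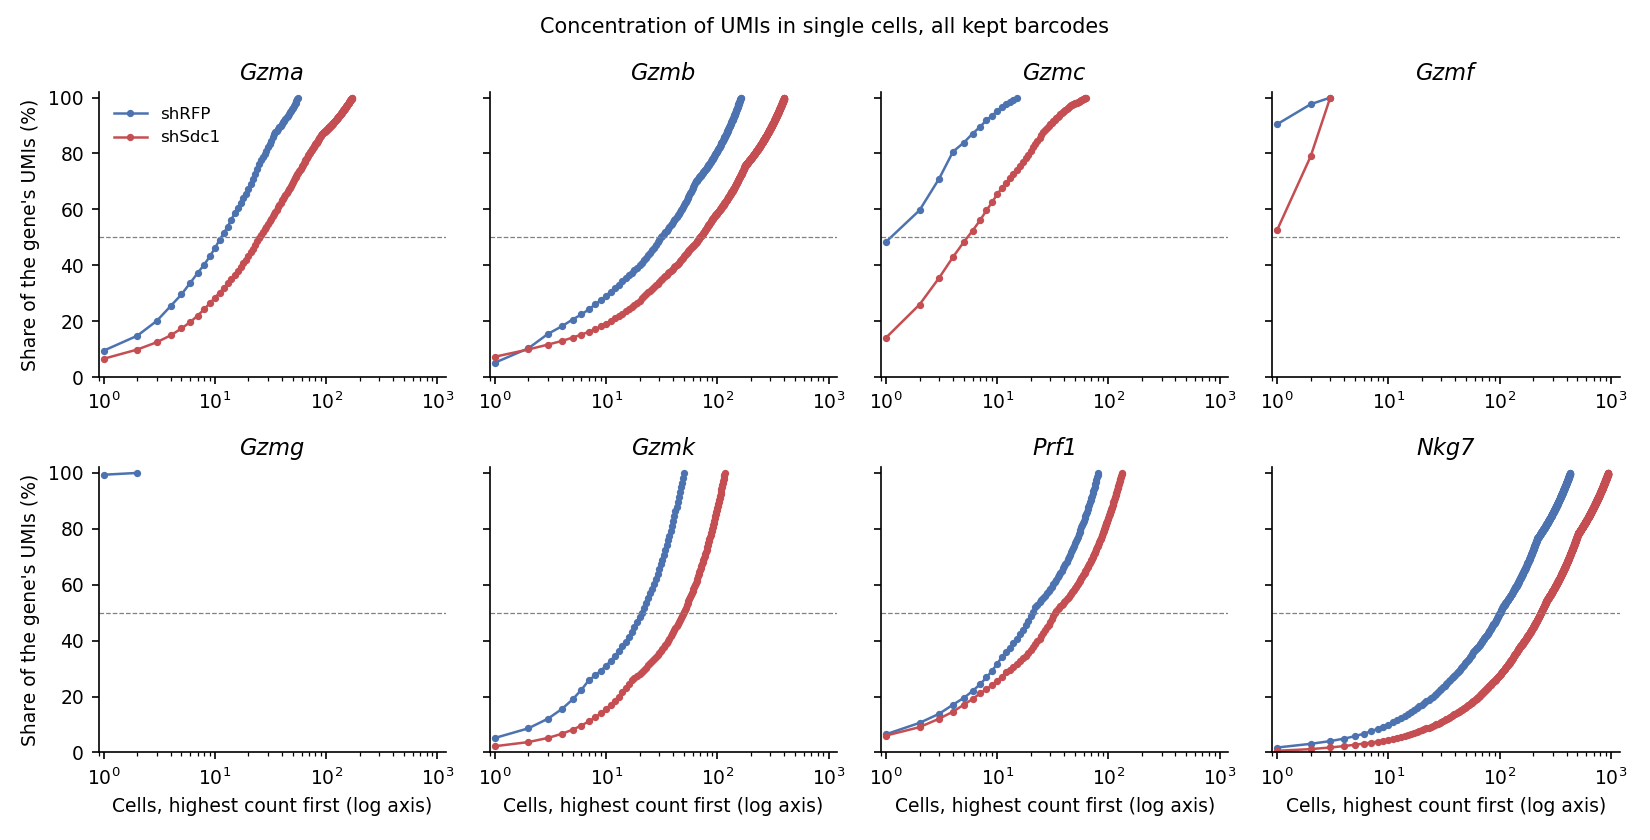
Cumulative share of each gene's UMIs (percent) against the number of cells, highest count first (log axis), in all kept barcodes of shRFP and shSdc1; the dashed line marks 50%. The first shRFP cell holds 48.4% of Gzmc, 90.5% of Gzmf and 99.4% of Gzmg, while the first cell of either library holds under 2% of Nkg7.

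One shRFP cell carried 154 of the 155 Gzmg UMIs, 60 of the 124 Gzmc UMIs and 38 of the 42 Gzmf UMIs in that library. It also held 28 Gzmd, 23 Gzme, 17 Gzmb, 8 Prf1 and 3 Gzmn UMIs, 1 Nkg7 UMI, and no Gzma or Gzmk. In all, 323 of its 1561 UMIs (20.7%) were granzyme UMIs, and the shRFP cell with the next highest share stood at 3.07%. The cell had 766 detected genes and 0.448% mitochondrial UMIs, and it was not marked as a doublet. It fell in the NK-like cluster but had only 1 of the 10 listed NK markers (Klra4, 2 UMIs), 1 of the 8 T cell markers (Trbc2, 1 UMI) and 2 of the 8 regulatory T cell markers (Tnfrsf18, 1 UMI, and Capg, 3 UMIs, with Foxp3 at 0); all monocyte/macrophage, dendritic, B, neutrophil, mast and melanoma markers were at 0. It also held 9 UMIs of Spp1, which encodes osteopontin and is among the leading genes of sub-cluster 5, and 8 of Tnfrsf9, which encodes the activation receptor 4-1BB.

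Other cells rich in granzymes lay in both libraries. The highest Gzmb cell of shSdc1, in sub-cluster 5, held 67 Gzmb, 59 Gzmc, 20 Gzma and 12 Prf1 UMIs, and granzymes made up 10.3% of its UMIs. The highest Gzmc cell of shSdc1 was NK-like, with 87 Gzmc, 15 Gzma and 9 Gzmb UMIs (6.04% granzymes), and the highest Gzma cell was NK-like too, with 40 Gzma and 23 Gzmc UMIs (5.76%). Cells with a granzyme share over 2% of UMIs numbered 5 in shRFP and 27 in shSdc1, of which 2 and 22 were NK-like. A UMI of any granzyme was present in 251 shRFP cells (4.80%) and 620 shSdc1 cells (11.1%).

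Cells with several of the chromosome 14 granzymes other than Gzmb were few. A UMI of at least 1 of Gzmc, Gzmd, Gzme, Gzmf, Gzmg and Gzmn was present in 17 and 66 cells, of which 3 and 2 carried at least 3 of these genes. Those few cells held 85.5% of the group's UMIs in shRFP and 16.0% in shSdc1. Beside the cell above they were a sub-cluster 5 cell and a regulatory-like cell in shRFP, the latter with 12 Gzmc, 2 Gzmd, 2 Gzme, 5 Gzmb and 6 Nkg7 UMIs and no Foxp3, and 2 sub-cluster 5 cells in shSdc1. One of these 2 had 73 Gzmc, 24 Gzmb and 11 Gzma UMIs with 1 UMI each of the NK marker Ncr1 and the T cell marker Trac. The other had 10 Gzmf, 7 Gzmc and 7 Nkg7 UMIs with 1 UMI each of Cd8a and Cd8b1. None of the 5 cells held Gzmk. A Gzmb UMI was present in 9 of the 15 Gzmc cells of shRFP and 24 of the 63 of shSdc1.

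Summed over all kept barcodes, 6 of the 8 genes were at least 1.5-fold higher in shSdc1 and 2 were at least 1.5-fold lower. Of the 10801 genes whose UMIs in the pair of libraries came to 20 or more, 15.6% were that much higher and 5.79% that much lower. The median log2 ratio was 1.13 over the 8 genes, against 0.14 over all genes. Gzma had 169 UMIs in shRFP and 609 in shSdc1 (41.1 and 142 CPM), a ratio of 3.46 with a 95% counting interval of 2.92 to 4.13. Gzmb had 330 and 920 UMIs, a ratio of 2.68 (2.36 to 3.05), and Gzmc had 124 and 617 UMIs, a ratio of 4.78 (3.94 to 5.85). Gzmk had 58 and 135 UMIs, a ratio of 2.24 (1.63 to 3.10), Prf1 had 123 and 199 UMIs, a ratio of 1.56 (1.24 to 1.96), and Nkg7 had 911 and 2030 UMIs, a ratio of 2.14 (1.98 to 2.32).

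Gzmf and Gzmg were the genes lower in shSdc1, and both rested on the cell described above. Gzmf had 42 and 19 UMIs, a ratio of 0.435 (0.239 to 0.764), and without its highest cell in each library it had 4 and 9 UMIs, a ratio of 2.16 (0.604 to 9.61). Gzmg had 155 and 0 UMIs and was at least 53.7-fold lower against a floor of 3 counts, but without that cell 1 UMI remained. The same cell held back Gzmc, whose ratio was 7.96 (6.13 to 10.5) without the highest cell of each library. UMIs bunched in single cells vary more than the counting intervals allow, so these intervals are too narrow.

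Scaling mattered at the margin. Scaling by TMM or by median of ratios moved all log2 ratios by -0.15 and -0.14, after which the share of calls over all genes that were higher was 54.9% and 55.4% in place of 72.9%. Prf1 then had ratios of 1.41 and 1.41, under 1.5, and the other 7 genes kept their side. The all-cell sums combine how many cytotoxic cells a library held with how much each expressed. With the clusters weighted alike in both libraries, 1 of the 8 genes was at least 1.5-fold higher: Gzmc, with weighted levels of 61.6 and 98.2 CPM, a ratio of 1.59. Gzmf (ratio 0.148) and Gzmg (83.1 and 0 CPM) stayed lower. The other weighted ratios were 1.25 for Gzma, 1.19 for Gzmb, 1.13 for Gzmk, 1.08 for Nkg7 and 0.725 for Prf1, which changed its direction. Only the 8 genes were weighted in this way, so these counts have no share over all genes beside them.

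**Figure D4:**
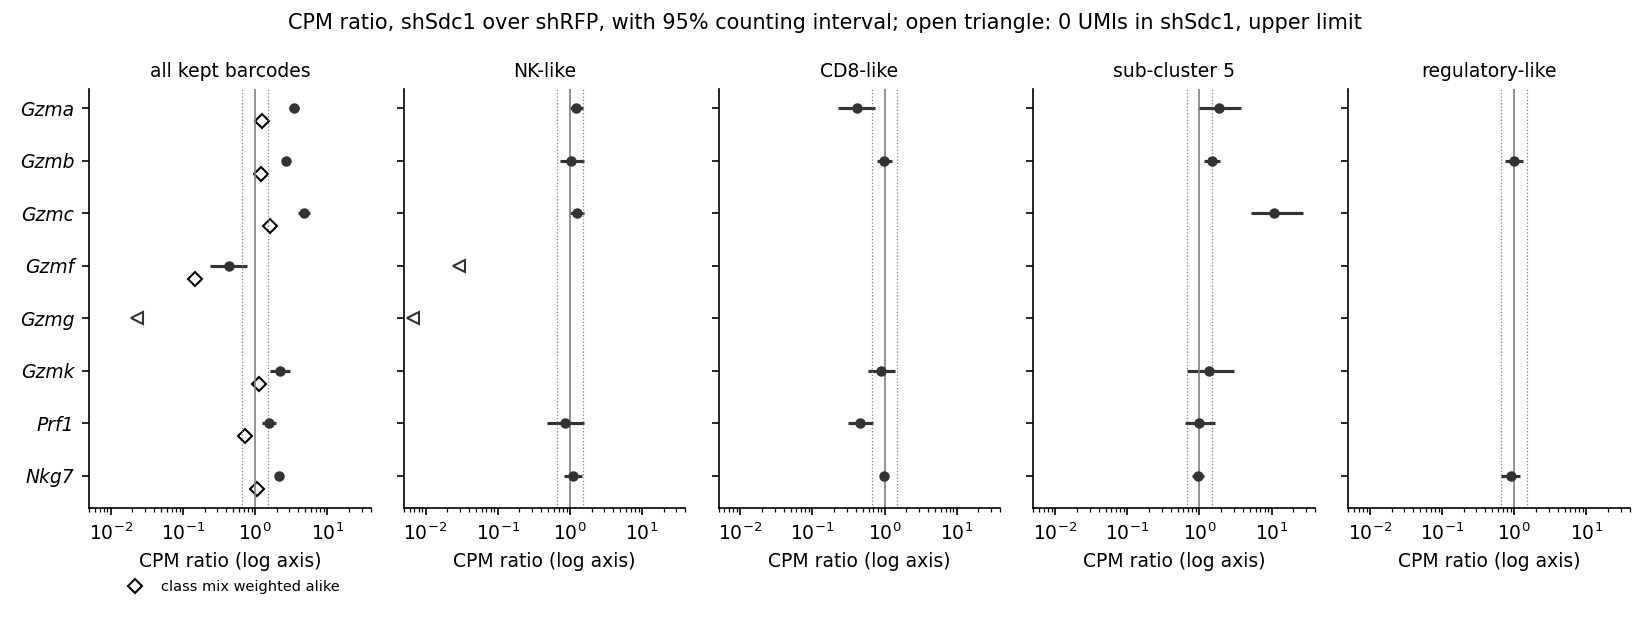
Ratio of CPM in shSdc1 over shRFP (log axis, with 95% counting intervals; dotted lines at 1.5-fold) for genes with 20 or more UMIs over the pair of libraries, in all kept barcodes and 4 populations. In all kept barcodes 6 genes lie above 1.5-fold, and in CD8-like cells Gzma (0.410) and Prf1 (0.459) lie below 1/1.5; open diamonds give the ratio with the clusters weighted alike, and open triangles upper limits.

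Within NK-like cells none of the 7 measured genes was at least 1.5-fold higher in shSdc1 and 2, Gzmf and Gzmg, were lower, against 20.2% and 14% of 1445 genes. Gzma had a ratio of 1.24 (1.0 to 1.54; 107 and 471 UMIs), Gzmc 1.25 (1.0 to 1.58; 96 and 428 UMIs), Gzmb 1.05 (0.725 to 1.55), Nkg7 1.10 (0.837 to 1.47) and Prf1 0.860 (0.489 to 1.59). TMM moved these log2 ratios by 0.25, with 79.9% of the calls over all genes higher in place of 59.1%, and called none of the 8 genes higher. In NK-like barcodes with at least 500 genes, Gzma had 21 and 169 UMIs, a ratio of 2.22 (1.41 to 3.68), and Prf1 13 and 20 UMIs, a ratio of 0.424 (0.201 to 0.928). Gzmb was at 0.695 (0.431 to 1.15) there.

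The granzyme-rich cell weighed heavily on the NK-like values, as 1 of 75 cells. Without the highest cell for the gene in each library Gzmc had 36 and 341 UMIs, a ratio of 2.58 (1.83 to 3.75), and Gzmb 20 and 126 UMIs, a ratio of 1.71 (1.06 to 2.89). Cells taken by a UMI of Ncr1, Klrb1c or Klre1 with no Cd3 UMI, 49 in shRFP and 120 in shSdc1, differed more. In this gate Gzmc had 6 and 321 UMIs (216 and 4568 CPM), a ratio of 21.2 (9.61 to 58.1), Gzmb a ratio of 3.22 (1.81 to 6.25), Prf1 1.73 (0.788 to 4.32) and Nkg7 1.55 (1.07 to 2.29), while Gzma stayed at 2699 and 3458 CPM. The NK-like cells with none of these receptor UMIs held 90 of the 96 Gzmc UMIs in shRFP and 151 of 428 in shSdc1. The share of NK-like cells with a Gzmc UMI was 8% in shRFP (exact binomial interval 2.99 to 16.6) and 17.5% in shSdc1 (13.0 to 22.8), and 10.3% and 18.4% in cells thinned to 300 UMIs, with 17 and 39 shallower cells left out.

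Within CD8-like cells 0 of the 5 measured genes were at least 1.5-fold higher and 2 were lower, against 16.9% and 12.5% of 3118 genes (57.4% of calls over all genes higher, or 67.5% with TMM). Prf1 had 53 and 57 UMIs (494 and 226 CPM), a ratio of 0.459 (0.310 to 0.680). It was found in 15.2% of these cells in shRFP (10.7 to 20.7) and 8.72% in shSdc1 (6.38 to 11.6), and in 12.7% and 5.71% after thinning. CD8-like cells with a Cd8a or Cd8b1 UMI had 585 and 277 CPM of Prf1, and those without had 354 and 159 CPM. The difference was smaller in cells taken by Cd8 and Cd3 or Trac UMIs from any cluster (334 and 202 CPM, a ratio of 0.606, 0.422 to 0.873) and under 1.5-fold in clusters made without scaling genes to unit variance (0.705).

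Gzmb, Gzmk and Nkg7 stayed within 1.5-fold in CD8-like cells. Gzmb had 93 and 217 UMIs, a ratio of 0.995 (0.777 to 1.28), Gzmk 36 and 76 UMIs, a ratio of 0.900 (0.598 to 1.38), and Nkg7 359 and 833 UMIs, a ratio of 0.990 (0.873 to 1.12). With a minimum of 500 genes per barcode the Gzmk ratio was 0.588, more than 1.5-fold lower. In the gate by Cd8 UMIs, which takes in cells of sub-cluster 5, Gzmb had 104 and 288 UMIs, a ratio of 1.48 (1.18 to 1.87), and Gzmc had 5 and 36 UMIs. Gzma had a ratio of 0.410 (0.227 to 0.739), but on 26 and 25 UMIs. Of the shRFP UMIs of Gzma 22 lay in CD8-like cells with no Cd8 UMI, and 9 in a single cell. Without the highest cell of each library the Gzma ratio was 0.526 (0.264 to 1.06), at a clustering resolution of 1.5 it was 1.09, and in the gate by Cd8 UMIs it was 2.01 (0.639 to 8.30) on 4 and 15 UMIs. Cells with a UMI of Ncr1, Klrb1c or Klre1 were 7.37% of the CD8-like cluster in shRFP and 2.64% in shSdc1; they held 3 and 0 of the Gzma UMIs and 0 and 2 of the Prf1 UMIs.

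**Figure D5:**
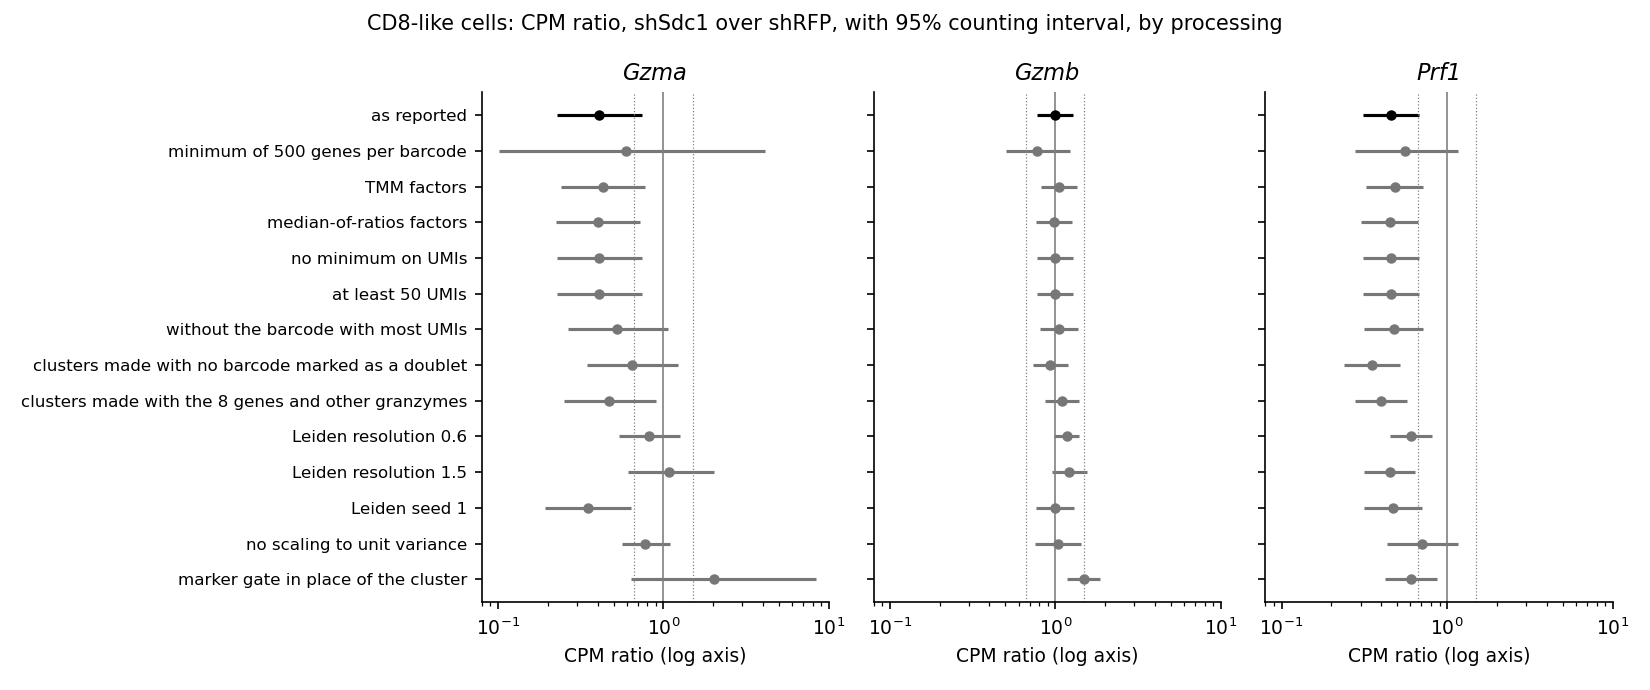
Ratio of CPM in shSdc1 over shRFP in CD8-like cells (log axis, 95% counting intervals, dotted lines at 1.5-fold) for Gzma, Gzmb and Prf1, as reported and under each alternative processing. Prf1 lies between 0.353 and 0.705 in all 13 alternatives, Gzmb between 0.781 and 1.48, and Gzma ranges from 0.351 to 2.01.

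In sub-cluster 5, 2 of the 6 measured genes were at least 1.5-fold higher in shSdc1 and none was lower, against 17.1% and 12.2% of 2680 genes. Gzmc had 7 and 169 UMIs (73.9 and 809 CPM), a ratio of 10.9 (5.20 to 27.6), in 3 and 10 cells. Without the highest cell of each library 3 and 96 UMIs remained, a ratio of 14.6 (4.86 to 72.2). In shSdc1 2 cells held 73 and 59 of the 169 UMIs, so 59 of the remaining 96 still lay in a single cell. Of the 169 shSdc1 UMIs 149 lay in cells with no CD8 or Foxp3 UMI. Gzma had 12 and 49 UMIs, a ratio of 1.85 (0.970 to 3.82), in 4 and 9 cells, and 3 and 29 UMIs, a ratio of 4.38 (1.36 to 22.5), without its highest cells. Gzmb, with 78 and 258 UMIs and a ratio of 1.499 (1.16 to 1.96), lay just short of the 1.5-fold rule; it was 1.54 with TMM. Prf1, Nkg7 and Gzmk had ratios of 1.0, 0.955 and 1.36. A Prf1 UMI was seen in 22.8% of the shRFP cells and 14.7% of the shSdc1 cells of this cluster, at 296 and 297 CPM, and 1 shSdc1 cell held 12 of the 62 UMIs.

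Regulatory-like cells gave measured ratios for Gzmb (0.998, 0.750 to 1.34; 71 and 161 UMIs) and Nkg7 (0.893, 0.666 to 1.21; 70 and 142 UMIs), neither past 1.5-fold, against 16.6% higher and 12.8% lower of 3200 genes. Cycling-like cells had Gzmb at 187 and 273 CPM (ratio 1.46, 0.870 to 2.56) and Nkg7 at 561 and 402 CPM (0.716, 0.514 to 1.01). In the cycling-like cells with a Foxp3 UMI and no CD8 UMI, 23 in shRFP and 46 in shSdc1, Gzmb stood at 227 and 335 CPM. Naive-like T cells, of which 30.2% and 29.7% had a CD8 UMI, showed Nkg7 at 671 and 1434 CPM, a ratio of 2.14 (1.62 to 2.83), in 20.1% and 37.0% of cells. Marker sums in this cluster differed too: the 7 CD8 T cell markers stood at 1904 and 3483 CPM, the 8 naive T cell markers at 4369 and 2470 CPM, and the 10 NK markers at 204 and 535 CPM. Their part in the Nkg7 difference was not tested.

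Cells often carried more than 1 of the 8 genes. A UMI of any of them was found in 70.7% and 79.3% of NK-like cells, 74.2% and 76.9% of CD8-like cells, 77.2% and 75.3% of sub-cluster 5 and 27.1% and 26.8% of regulatory-like cells. At least 3 of the 8 were found in 18.7% and 22.3% of NK-like cells, 8.29% and 9.94% of CD8-like cells, 21.5% and 20.6% of sub-cluster 5, and 0.357% and 0.169% of regulatory-like cells. Sub-cluster 5 cells were much deeper than the others, with a median in shRFP of 1101 UMIs against 417 in CD8-like cells. These shares were not compared at like depth. In sub-cluster 5, 13 of 18 shRFP cells and 18 of 25 shSdc1 cells with Prf1 also held Gzmb, and 18 and 24 of them held Nkg7. In CD8-like cells, 6 of 33 and 19 of 43 cells with Prf1 held Gzmb. NK-like cells with Gzmb held Gzma in 8 of 15 cells in shRFP and 34 of 53 in shSdc1. Few cells held both Gzmk and Gzma: of all kept cells with Gzmk, 1 of 50 and 6 of 117 held Gzma. Gzma was no more common in kept cells as a whole, at 56 of 5225 and 171 of 5576, which are lower shares. Of the regulatory-like cells with Gzmb, 12 of 43 and 22 of 81 held Nkg7, while 2 and 0 of them held Prf1.

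The genes whose levels followed each member most closely were found over 31 sums of population and library, as Pearson's r of log2(CPM + 10) among 5438 genes with at least 200 UMIs. These points share libraries and cells, so r is a description. Gzmb was most like Rgs16 (0.93), Sh2d1a (0.92) and Nkg7 (0.91). Prf1 was most like Sh2d1a (0.95), Nrgn (0.93) and Klrc1 (0.92), and Nkg7 was most like Lck (0.97), Sh2d1a (0.97) and Thy1 (0.96), which are genes of T and NK cells generally. Gzma was closest to Xcl1 (0.89), Nrgn (0.88) and Prf1 (0.88), and Gzmc to Gzma (0.81), Ccl1 (0.81) and Klrc1 (0.80).

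Genes that load, move and restrain the granules were read from lists chosen by function, beside the 15.6% higher and 5.79% lower of all genes. TMM would lower the log2 ratios over all kept barcodes by 0.15, and raise those in NK-like cells by 0.25 and in CD8-like cells by 0.07. Lymphoid cells held 14.5% of all UMIs in shRFP and 28.5% in shSdc1, and the part of this in the list counts over all kept barcodes was not tested. Over all kept barcodes, 3 of 13 measured exocytosis genes were at least 1.5-fold higher and none lower, among them Sytl2, a Rab27 effector (30 and 152 UMIs, ratio 4.87, 3.28 to 7.47), and Rab27a, the GTPase that docks granules (60 and 115 UMIs, 1.84, 1.34 to 2.56). Of 10 genes of the granule matrix and of protease processing 3 were higher, led by the cathepsin Ctsw (201 and 470 UMIs, 2.25, 1.90 to 2.67), and 1 was lower: Srgn, the granule proteoglycan serglycin, which myeloid cells also express (7924 and 4730 UMIs, 0.574, 0.553 to 0.595). Srgn had a ratio of 1.04 in NK-like cells and 0.970 in CD8-like cells. Of 4 measured serpins that inhibit granzymes or are related to those that do, 3 were higher, Serpina3g most (2.22, 1.86 to 2.66). In CD8-like cells, where 12.5% of all genes were lower, the 3 measured serpins were all lower, with Serpinb6a at 31 and 29 UMIs (0.399, 0.232 to 0.684), Serpina3g at 0.657 (0.451 to 0.966) and Serpinb9, the granzyme B inhibitor, at 14 and 19 UMIs (0.579, 0.275 to 1.25). Serpina3g lay near the limit there, and with TMM it would be within 1.5-fold. Of the listed serpins 1 of 3 was higher and 1 lower in NK-like cells, and 0 of 4 passed 1.5-fold in sub-cluster 5.

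Among 10 death ligands and cytokines 7 were higher and 3 lower over all kept barcodes. Fasl, a ligand that kills through the Fas receptor, had 18 and 61 UMIs (3.26, 1.90 to 5.86), and Tnfsf10, the gene of TRAIL, had 37 and 115 UMIs (2.99, 2.05 to 4.45), while Tnf (0.538), Ccl3 (0.477) and Ccl4 (0.60), which macrophages also make, were lower. Ccl3 was lower in CD8-like cells as well, with 133 and 157 UMIs (0.503, 0.397 to 0.639). Receptors of cytokines that induce granzymes were higher for 7 of 10 genes and lower for none, with Il2rb, the beta chain of the interleukin 2 and 15 receptors, at 285 and 876 UMIs (2.96, 2.58 to 3.39). Within clusters, 2 of 4 measured receptors were higher in NK-like cells, 0 of 6 in CD8-like cells, 1 of 6 in sub-cluster 5 and 1 of 7 in regulatory-like cells. The shares of all genes higher there were 20.2%, 16.9%, 17.1% and 16.6%. In NK-like and regulatory-like cells 1 receptor each was lower. In NK-like cells Il2rb had 18 and 152 UMIs (2.37, 1.45 to 4.11) and Ccl4 had 53 and 55 UMIs (0.292, 0.196 to 0.434). Of 13 transcription factors 2 were higher, Tbx21 (3.15, 2.06 to 4.95) and Eomes (2.35, 1.63 to 3.43), both T-box factors of cytotoxic cells, and 1 was lower, Nfil3 (0.476, 0.416 to 0.544). Of the other granzymes Gzmd (32 and 19 UMIs) and Gzme (29 and 8 UMIs) were lower, and 28 and 23 of their shRFP UMIs were in the granzyme-rich cell.

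Markers of other cell types differed between libraries within these clusters, and their part in the ratios was not tested. The 16 monocyte/macrophage markers summed to 1011 CPM in shRFP and 1359 in shSdc1 in NK-like cells (6 and 11 of 16 detected), 550 and 1053 CPM in CD8-like cells (11 and 12), 232 and 617 CPM in sub-cluster 5 (8 and 11) and 1119 and 726 CPM in regulatory-like cells (11 and 13). The defining macrophage genes Adgre1 and Fcgr1 were at 0 in NK-like cells and sub-cluster 5 of both libraries. The 8 T cell markers summed to 2460 and 2542 CPM in NK-like cells, all 8 detected, against 8907 and 8479 CPM in CD8-like cells. The 10 NK markers summed to 494 and 441 CPM in CD8-like cells (4 and 7 detected, Klra4 and Klra8 at 0 in both) and to 4564 and 4639 CPM in NK-like cells. In sub-cluster 5 the NK markers summed to 1108 and 1000 CPM (3 and 4 detected) and the T cell markers to 6302 and 6109 CPM. Melanoma markers were at 0 in NK-like cells and sub-cluster 5 of both libraries.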

How the data were processed

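Droplet libraries (10x 3' v3.1, per the labels' protocols) were counted by Cell Ranger, version 6.1.1 per the file headers, on mm10, per the submitters' processing notes. The authors deposited raw UMI counts per gene and barcode, not normalized; no further step is stated. Depth was 4116399 and 4281577 UMIs after the filter.

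The 8 genes and all gene lists were chosen with earlier results of these data known. The list of granzyme substrates is not reported here. All 8 genes are named in every population; of each list up to 2 of the highest and 2 of the lowest by ratio, and others that the roles of the 8 call for. Counts were scaled to 10000 per cell. The 2000 most variable genes, without granzymes, Prf1 and Nkg7, were scaled to unit variance, and 30 components and 15 neighbours were clustered (scanpy 1.11.5, Leiden resolution 1, leidenalg 0.10.2), giving 16 clusters and 9 lymphoid sub-clusters. A name needed a mean marker log2 difference of 0.5 with at least 3 markers, and leading genes that did not hold more markers of another class. Scrublet's automatic threshold marked 1 and 0 cells, so the 242 and 263 highest scores (0.8% per 1000 barcodes) were marked as doublets; they stay in the totals of all kept barcodes and out of the clusters.

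UMIs were summed per population and library and divided by its total, with exact Poisson intervals (scipy 1.17.1). Ratios carry exact conditional binomial intervals at 95%, for genes whose UMIs in the pair of libraries came to 20 or more. Differences are called by size, 1.5-fold, with no test, since each group is 1 library. Shares have Clopper-Pearson intervals. TMM factors came from edgeR 4.0.16. The ratio calculation was tested on simulated data.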

Additional observations from a re-analysis of the deposited data

How the results depend on the processing

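No paired analysis was possible because each group is 1 library. Of 96 counts of genes past 1.5-fold under alternatives, 76 stayed within 1.5 times the reported count. Among 286 ratios of single genes, 249 lay inside the reported counting interval and 33 lay outside it in the same direction or for a gene within 1.5-fold. The other 4 changed direction, which was counted only for ratios reported past 1.5-fold. The 4 were Prf1 in all kept barcodes with clusters weighted alike (0.725), Gzmf in all kept barcodes without the highest cell of each library (2.16), and Gzma in CD8-like cells at resolution 1.5 (1.09) and in the marker gate (2.01). Ratios reported within 1.5-fold also crossed 1 without being counted here. In the marker gates NK-like Prf1 went from 0.860 to 1.73 and regulatory-like Nkg7 from 0.893 to 1.32. For all kept barcodes, the count of genes higher was 1 in place of 6 with clusters weighted alike; the count lower, 2, became 1 with no minimum on UMIs, which needs a UMI in each library, and 0 without the highest cell. In NK-like cells the count higher, 0, became 1 with at least 500 genes per barcode, 2 without the highest cell and 4 in the marker gate; the count lower, 2, became 0 with no minimum, 1 with at least 50 UMIs, 0 without the highest cell and 0 in the gate. In CD8-like cells the count higher, 0, became 2 at resolution 0.6, 1 at resolution 1.5 and 2 in the gate; the count lower, 2, became 4 with no minimum, 1 at either resolution, 0 without scaling to unit variance and 1 in the gate. In regulatory-like cells the count lower, 0, became 1 with at least 500 genes and 1 with no minimum. Apart from the alternatives whose construction removes cells or genes, the cause was not tested. The clusters weighted alike and the clusters without scaling were chosen after seeing the data. Sub-cluster 5 was recomputed only under settings that keep the clusters. Depth, a median near 400 UMIs in NK-like and CD8-like cells, limits shares of cells with a UMI: thinning to 300 UMIs took the NK-like share with Prf1 from 8% and 16.3% to 5.17% and 7.55%.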

Other observations

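The 561 shRFP and 326 shSdc1 barcodes that failed the filter on genes or mitochondrial UMIs held 98 and 55 UMIs of the 8 genes, or 702 and 617 CPM. Nkg7 made up 56 and 36 of these UMIs, Gzma 22 and 7 and Gzmb 13 and 6. No Gzmc UMI was found in the removed shRFP barcodes, and 3 were found in those of shSdc1.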
